A study of Mus musculus with 2 samples.

Results

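The genes described here encode the nuclear subunits of mouse oxidative phosphorylation. They were taken as every gene on the array whose name in the array design begins with Nduf, Uqcr, Cox4 to Cox8 or Atp5, or is Sdha, Sdhb, Sdhc or Sdhd, which gave 82 of the 27962 gene names, read by 113 of the 41174 probes that are not controls. Of the 82 genes, 78 encode subunits, 35 of complex I, 4 of complex II, 7 of complex III, 17 of complex IV and 15 of ATP synthase. The other 4, Cox4nb, Cox7a2l, Atp5s and Ndufaf1, match by name and were kept apart. Liver RNA came from male apoE-KO mice on a C57BL/6 background, which lack apolipoprotein E in both groups. The groups differed in the feed of 1 week, which was normal chow in one and in the other this chow with cholesterol added to 1.25% (the high-Chol diet), begun when the animals were 10 weeks old. For each diet 3 independent experiments were hybridized, each to a one-colour Agilent array. No mice with intact Apoe were on these arrays. The labels do not say how many animals made up an experiment.

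Oxidative phosphorylation is the route by which mitochondria turn the energy of nutrients into ATP. Complexes I and II pass electrons from NADH and succinate to ubiquinone, complex III hands them to cytochrome c and complex IV to oxygen. Complexes I, III and IV pump protons as they do so, and ATP synthase uses the returning protons to make ATP. Hepatocytes are rich in mitochondria and spend much of this ATP on gluconeogenesis, urea synthesis and lipid handling.

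Liver RNA was read as the brightness of 60-base probes, and each value below is a log2 signal relative to the 75th percentile of its array. The arrays are named normal chow 1 to 3 and high-Chol 1 to 3, where the numbers only tell them apart. All 3 normal chow arrays and high-Chol 1 lay on 1 slide (slide 1), and high-Chol 2 and 3 lay on another (slide 2), on which the 75th percentile of the signal was 799 and 762 against 271 to 373 on slide 1. Between 50.5% and 67.2% of spots were well above background. Diet and slide therefore overlap in part, and a fit with slide as a block rests on high-Chol 1 alone against normal chow. A gene was tested when every array of 1 diet or both read its probe well above background, which 80 of the 82 genes and 76 of the 78 subunits passed. The 2 that did not were Cox8b, a heart and muscle isoform that was well above background on 1 of 6 arrays, and Cox8c, a testis isoform that was so on 0 of 6. These are bulk samples, in which fewer cells of a type and less RNA per cell cannot be told apart.

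Probes and promoters of a few members are printed because later values turn on them. Where a gene has several probes, the brightest stood for it. In Ndufa12, an accessory subunit of complex I, the probes gave differences of both signs, and a pair of them share 40 of 60 bases. These are shown 5′ to 3′ with the shared bases in capitals, at chr10:93758922-93758981 and chr10:93758942-93759001 of mm7, plus strand.
Ndufa12 upstream probe: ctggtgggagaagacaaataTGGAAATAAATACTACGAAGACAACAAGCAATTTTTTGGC
Ndufa12 downstream probe: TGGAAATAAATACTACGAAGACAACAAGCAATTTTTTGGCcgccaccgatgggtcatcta
Atp5b, the catalytic beta subunit of ATP synthase, has 3 probes whose differences ran from -0.56 to -0.07, and the ones other than the brightest lie at chr10:127586901-127586960 and chr10:127585810-127586488 (mm7, plus strand). The second of these spans 679 bases of the genome for 60 bases of probe, so its bases are not contiguous in the genome.
Atp5b contiguous probe: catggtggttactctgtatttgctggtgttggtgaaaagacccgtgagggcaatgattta
Atp5b split probe: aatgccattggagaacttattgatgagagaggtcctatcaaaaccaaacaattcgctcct
Cox4i1 and Cox4i2 encode alternative forms of complex IV subunit 4. Their probes share no run of more than 5 bases, and lie at chr8:119308998-119309057 and chr2:152495071-152496060 (mm7, plus strand). Neither probe was compared with the transcript of the other gene, so whether one could read the other was not tested.
Cox4i1 probe: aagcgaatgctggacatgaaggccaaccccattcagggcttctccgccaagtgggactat
Cox4i2 probe: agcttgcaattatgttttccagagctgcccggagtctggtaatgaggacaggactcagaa

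Because subunits of all complexes are known to share transcription factors, their promoters were searched on both strands for 4 short motifs, CGCATGCG (NRF-1), CCGGAAG (ETS factors such as GABP), AAGATGGC (YY1) and TCAAGGTCA (estrogen-related receptors). The ETS motif ends in the AAG with which the YY1 motif begins, so these can overlap. RefSeq promoters of GRCm38.p6, from 250 bases before to 50 after the start, were found for 64 of the 78 subunit genes, 69 promoters in all. The NRF-1 motif was in 13% of these against 2.52% of the 21263 promoters of protein-coding genes, the ETS motif in 23.2% against 11.6%, the YY1 motif in 14.5% against 3.05% and the estrogen-related receptor motif in 2.90% against 0.334%. A TATAAA motif was in 10.1% against 12.6%. These are counts of letters and not of bound sites. The NRF-1 and ETS motifs contain CG, and the subunit promoters held more CG pairs, with a median of 19 against 13 over all these promoters. The shares were not adjusted for this. The promoters of Atp5j (coupling factor 6), with 3 of the motifs at this start and 0 at a second start at chr16:84835576-84835875, of Cox6a1, and of Sdhd, 1 of the 2 genes with the estrogen-related receptor motif, are given with motifs in capitals, at chr16:84834927-84835226, chr5:115348909-115349208 and chr9:50603800-50604099, all minus strand.
Atp5j promoter: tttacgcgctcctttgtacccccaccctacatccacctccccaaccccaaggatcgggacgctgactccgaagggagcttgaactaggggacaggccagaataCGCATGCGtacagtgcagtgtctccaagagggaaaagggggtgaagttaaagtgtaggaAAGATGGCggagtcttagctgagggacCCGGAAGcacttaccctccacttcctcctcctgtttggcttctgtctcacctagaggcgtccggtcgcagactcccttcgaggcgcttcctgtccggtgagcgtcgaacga
Cox6a1 promoter: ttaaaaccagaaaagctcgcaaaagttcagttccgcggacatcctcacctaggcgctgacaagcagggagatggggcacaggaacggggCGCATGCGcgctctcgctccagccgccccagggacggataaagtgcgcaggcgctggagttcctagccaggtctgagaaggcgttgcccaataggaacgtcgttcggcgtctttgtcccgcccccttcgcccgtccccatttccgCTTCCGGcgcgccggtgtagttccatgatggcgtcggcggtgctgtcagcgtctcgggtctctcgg
Sdhd promoter: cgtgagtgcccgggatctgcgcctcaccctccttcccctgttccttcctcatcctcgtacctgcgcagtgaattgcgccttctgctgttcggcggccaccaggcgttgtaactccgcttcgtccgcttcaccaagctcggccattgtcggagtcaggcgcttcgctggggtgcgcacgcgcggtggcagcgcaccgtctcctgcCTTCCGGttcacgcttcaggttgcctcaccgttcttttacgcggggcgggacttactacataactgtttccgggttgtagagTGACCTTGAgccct
The median of the diet difference described below on the log2 scale was -0.21 over the 9 tested subunits with the NRF-1 motif and -0.23 over the 54 without, and -0.18 over 16 with the ETS motif and -0.24 over 47 without. It was -0.25 over 10 with the YY1 motif and -0.21 over 53 without, and -0.28 over 2 with the estrogen-related receptor motif and -0.21 over 61 without. No difference between these sets was tested.

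Most subunits gave a somewhat lower signal on the high-Chol diet, and 0 of the 76 passed the test. Of the 76, 65 had a log2 difference (high-Chol diet minus normal chow) below 0, with a median of -0.23 and a range from -0.60 to 1.69, whereas over all 16727 genes the median was -0.02 and 52.2% were below 0. This direction was not kept by every processing. With a normexp background correction, which adds 50 to every signal, the median of the subunits was 0.05 and 20 of 76 were below 0. With quantile normalization it was -0.05 with 45 below 0. By limma with Benjamini-Hochberg adjustment over all genes, the lowest adjusted p among the subunits was 0.138, while 450 of 16727 genes (2.69%) were called higher and 38 (0.227%) were called lower. These calls also depend on the processing, since with a normexp background 0 of the 16727 genes were called in either direction. Without adjustment, at p under 0.05, limma gave 5 subunits lower (Atp5e, Cox6a1, Ndufa13, Uqcrc1 and Uqcrh) and 1 higher (Cox6a2), against 8.83% of all genes lower and 12.3% higher. Cox4i2, which sets the top of the range, is left out of this count because it passed the filter through the high-Chol arrays alone, and the 75 subunits well above background on all 6 arrays had a median of -0.23 with 65 below 0. The methods' t-test gave 13 of 76 at an unadjusted p under 0.05 (17.1%, against 16.7% of 16682 genes) and 0 after adjustment, when 4 of the 16682 genes were called higher and 1 lower. Among the 72 subunits with a value on every array, 23 were lower on the high-Chol diet with no overlap between the diets (31.9%, against 14% of 16435 genes), and 1 was higher with no overlap (1.39%, against 11.9%). An exact permutation test of 3 arrays against 3 cannot give a p below 0.1. Calls appeared without high-Chol 1, when 5 subunits were called lower and 3 higher (1 of them Cox4i2, whose direction its filter fixed), but 761 of 16683 genes were then called lower and 2314 higher, and diet and slide cannot be told apart.

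The arrays differed in the level of the subunits also within a diet. Relative to the mean of the normal chow arrays, the median over the 76 subunits was -0.14, 0.15 and 0.0057 under normal chow 1, 2 and 3, and -0.13, -0.29 and -0.22 on high-Chol 1, 2 and 3. The 3346 genes with the highest signal went the same way, with -0.08, 0.07 and 0.01 for the normal chow arrays and -0.11, -0.24 and -0.18 for the high-Chol arrays. Normal chow 1 and high-Chol 1 thus lay at about the same level, and high-Chol 2 and 3 lay lower. Normal chow 2 and 3, on slide 1 like normal chow 1 and high-Chol 1, lay higher. Normal chow 1 was below the normal chow mean in 74 of 76 subunits and normal chow 2 in 7 of 76, against 2290 and 1099 of those 3346 genes. For high-Chol 1, 45 of 76 subunits lay within the range of the normal chow arrays and 30 below it, whereas on high-Chol 2 and 3 54 of 74 and 47 of 74 lay below that range. With slide as a block the median was -0.13 with 66 of 76 below 0, and the median of all genes was -0.06. Leaving out normal chow 2 brought the median to -0.14 and leaving out normal chow 1 to -0.31. The plot of the subunits on each array shows this for each complex.

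**Figure D1:**
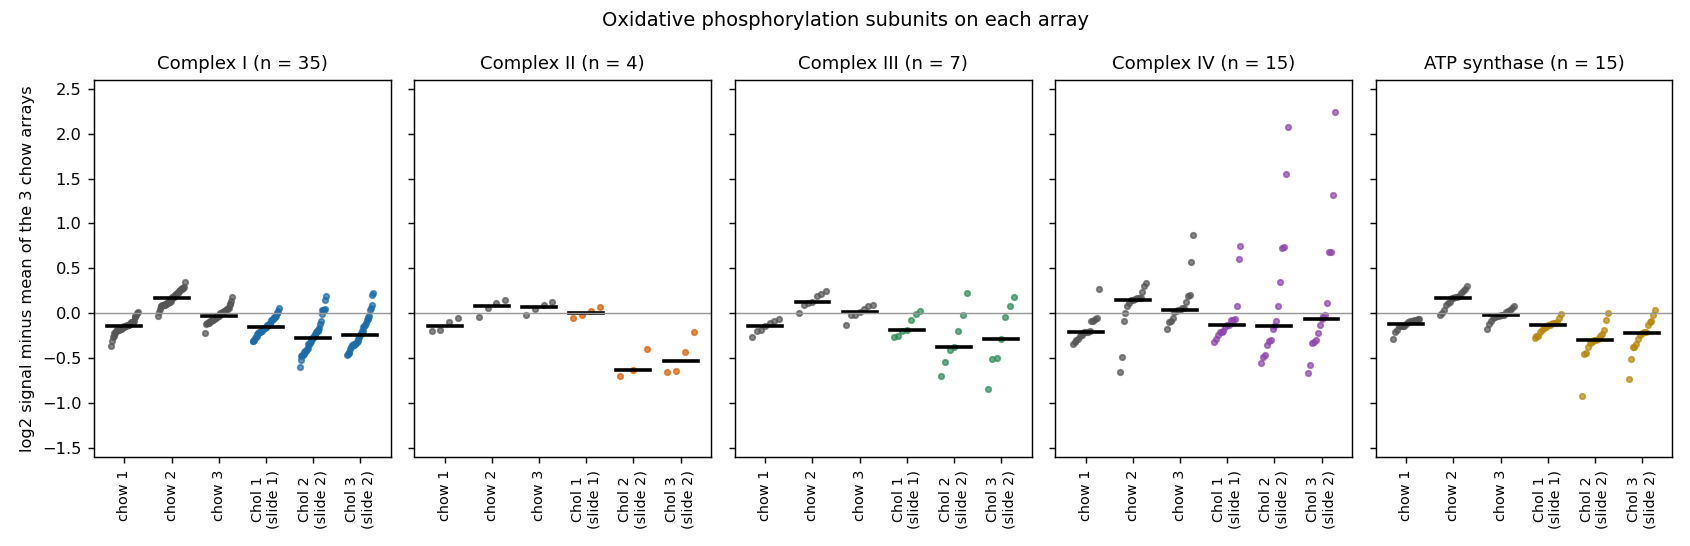
Log2 signal of each subunit minus its mean over the 3 normal chow arrays (vertical axis), for the 6 arrays and by complex; points are subunits, sorted by value within an array, and black bars are medians. The medians over all subunits run from -0.14 to 0.15 among the normal chow arrays and from -0.29 to -0.13 among the high-Chol arrays, and with a normexp background, which is not plotted, the subunits have a median difference of 0.05.

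The size of the difference followed the signal of a probe across all genes, and the subunits are among the genes with the strongest signal. Of the 76 tested subunits, 71 were in the quintile of genes with the highest mean signal, a position that reflects the probes as well as the RNA. In that quintile all 3346 genes had a median difference of -0.17, 75.6% were below 0 and 25.9% were lower with no overlap between the diets, whereas its 71 subunits had a median of -0.24 with 64 below 0. In the quintile with the lowest signal the median of all genes was 0.35. The normexp background turned this around, with medians of 0.11 in the highest and -0.56 in the lowest quintile, and 0.06 for the 71 subunits. It adds 50 to every signal before scaling, which weighs more where signals are low. The median background-subtracted signal was 26.9 to 36.4 on slide 1 and 103 and 97.9 on slide 2, so this offset does not act alike on the slides. The part of the offset in this turn was not tested. Relative to the median of all genes, the subunits were at -0.21 on the 75th percentile scale, -0.03 with quantile normalization, -0.07 with slide as a block and 0.16 with the normexp background. They were at -0.21 on the median scale too. That scale differs by a constant for each array, dim values aside, so this match is largely built in. The part of signal strength and of slide in the subunits' difference was not tested.

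**Figure D2:**
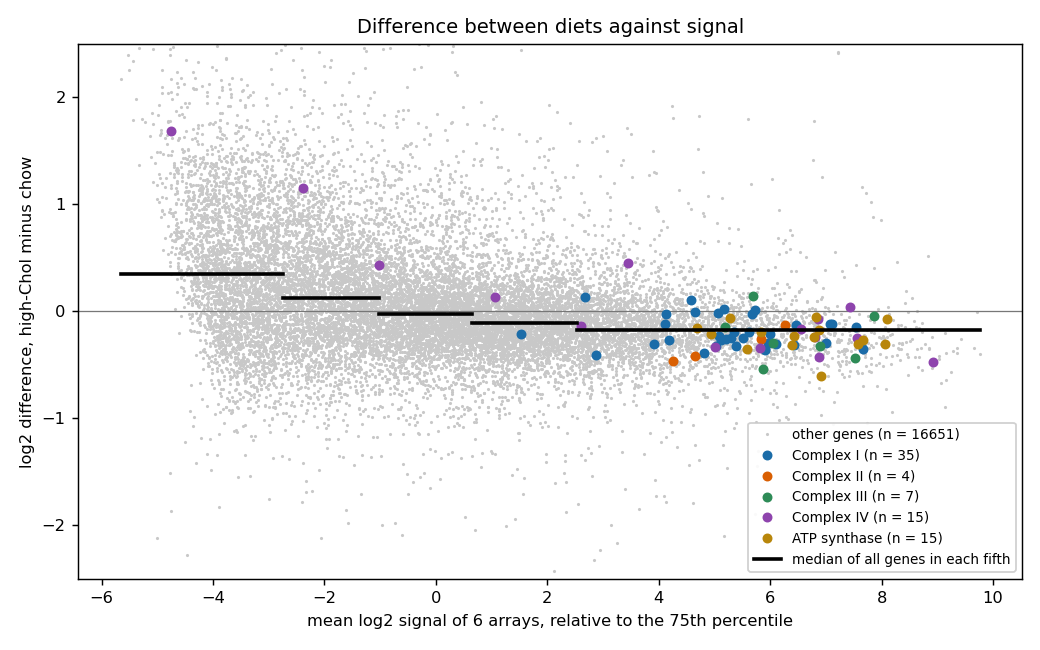
Log2 difference between the diets (vertical axis) against the mean log2 signal of the 6 arrays relative to the 75th percentile (horizontal axis) for all other genes (grey) and 76 subunits (coloured by complex); black lines are medians of all genes in each quintile of signal, and 78 other genes lie beyond 2.5 on the vertical axis. The median falls from 0.35 in the lowest to -0.17 in the highest quintile, where 71 of the subunits lie, and this slope is turned around by a normexp background with an offset of 50.

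Complex I takes electrons from NADH through a flavin and a chain of iron-sulfur clusters. Of its 35 subunits 31 were below 0, with a median of -0.23 and values from -0.41 to 0.13, 12 of the 33 with 6 values were lower with no overlap (36.4%, against 14% of all genes and 25.9% of the quintile of highest signal), and with a normexp background 10 of 35 were below 0. The 7 core subunits, which carry the redox centres, had a median of -0.21 (6 below 0) and the 28 accessory subunits of -0.24 (25 below 0). With slide as a block these medians were -0.04 and -0.17.

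Within complex I the lowest difference was that of Ndufb5, an accessory subunit of the membrane arm. Its log2 signal was 2.91, 3.36 and 2.98 under normal chow and 2.89, 2.48 and 2.64 under the high-Chol diet, which differed by -0.41 (standard error 0.19, limma's adjusted p = 0.261). All high-Chol values lay under the lowest normal chow value, though high-Chol 1 was close to it. Ndufs4, which is needed for a stable and active complex and whose loss causes Leigh syndrome, read 4.78, 5.29 and 4.93 under normal chow and 4.70, 4.58 and 4.57 under the high-Chol diet (difference -0.38, standard error 0.18, adjusted p = 0.259). Its diets did not overlap either, and the difference was -0.30 with slide as a block and -0.05 with a normexp background. At the other end, Ndufs8, a core subunit with iron-sulfur clusters, read 2.502, 2.65 and 2.66 against 2.63, 2.75 and 2.82 (difference 0.13, standard error 0.14). Ndufa8 differed by 0.11 (standard error 0.16), and for both the diets overlapped. With slide as a block they were at 0.025 and -0.075, and with median scaling both were below 0, at -0.11 and -0.13. The other core subunits lay between -0.32 (Ndufs1) and -0.03 (Ndufv2).

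The probes of Ndufa12 printed above gave 0.11 (standard error 0.20) for the upstream and -0.17 (standard error 0.18) for the downstream one, and the brightest probe of the gene, at chr10:93780198-93780257, gave -0.26 (standard error 0.17). Ndufc1 gave -0.02 and 0.05 on its probes.

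Complex II, succinate dehydrogenase, is shared by the respiratory chain and the tricarboxylic acid cycle. All 4 subunits were below 0, with a median of -0.33 (0.0050 with slide as a block and 0.0021 with a normexp background). Sdha, the flavoprotein, read 4.43, 4.44 and 4.58 under normal chow, 4.47 on high-Chol 1, and 3.78 and 3.83 on high-Chol 2 and 3 (difference -0.46, standard error 0.21, adjusted p = 0.264 from limma). High-Chol 1 thus lay within normal chow, and the other high-Chol arrays lay well under it. A dimmer Sdha probe had this pattern with a smaller difference, of -0.21 (standard error 0.17). Sdhc, a membrane anchor, had the same pattern, with 4.66, 5.01 and 4.90 under normal chow and 4.89, 4.22 and 4.22 under the high-Chol diet (difference -0.41, standard error 0.23). Sdhd, the other anchor, differed by -0.26 (standard error 0.19). Sdhb, the iron-sulfur subunit, differed by -0.13 (standard error 0.17), with 2 high-Chol values because its spot was marked as an outlier on high-Chol 2. Blocked on slide, the 4 values became -0.02, 0.03, 0.065 and -0.05 in that order, and with a normexp background -0.10, -0.04, 0.05 and 0.45.

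Complex III oxidizes ubiquinol and reduces cytochrome c. Its 7 subunits had a median of -0.29, with 6 below 0 and 2 of 7 lower with no overlap (28.6%, near the 25.9% of all genes of highest signal), and with a normexp background 3 of 7 were below 0. Uqcrc1, a core protein, read 6.05, 6.14 and 6.22 under normal chow and 6.06, 5.44 and 5.29 under the high-Chol diet (difference -0.54, standard error 0.22, adjusted p = 0.231 from limma). As with Sdha, high-Chol 1 stayed among the normal chow values, and the difference was -0.08 with slide as a block. A dimmer Uqcrc1 probe differed by -0.33 (standard error 0.17) with no overlap, though high-Chol 1, at 5.11, was close to normal chow 1, at 5.12. Uqcrh, the hinge protein, read 7.63, 7.87 and 7.73 against 7.49, 7.20 and 7.24 (difference -0.43, standard error 0.16, adjusted p = 0.192). Its diets did not overlap, and the difference was smaller, at -0.25 with slide as a block and -0.16 with a normexp background. A dimmer Uqcrh probe differed by -0.27 (standard error 0.18), and there the diets overlapped. Uqcrfs1, the Rieske iron-sulfur protein that transfers the electron, was the one subunit above 0, at 0.14 (standard error 0.15), but at 0.025 with slide as a block. The shared shift of median scaling put Uqcrfs1 at -0.09. Uqcrq was at -0.04 (standard error 0.16).

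Complex IV, cytochrome c oxidase, has several nuclear subunits that exist as tissue isoforms, and none of the isoforms passed the test. The 15 tested subunits had a median of -0.14, with 9 below 0, and 4 of 15 were lower with no overlap (26.7%, near the same 25.9%). The 11 subunits of liver and most tissues had a median of -0.24 with 9 below 0 (0.10 with a normexp background). The isoforms known from other tissues that all 6 arrays detected, Cox7a1, Cox6b2 and Cox6a2, were at 0.13, 0.43 and 1.16. With slide as a block Cox6b2 was at -0.13, and the shared shift of median scaling put Cox7a1 at -0.10. With a normexp background Cox6b2 was at 0.011 and Cox6a2 at 0.05. None of these isoforms is in the quintile of highest signal, and the median of all genes was 0.13, -0.03 and -0.11 in the quintiles of Cox6a2, Cox6b2 and Cox7a1. The difference between isoforms and common subunits was not tested. Cox6a1, the liver form of subunit 6a, read 9.11, 9.16 and 9.21 under normal chow and 8.88, 8.69 and 8.50 under the high-Chol diet (difference -0.47, standard error 0.16, adjusted p = 0.170 from limma). The diets did not overlap, and all high-Chol arrays were lower, also the one on slide 1, with a difference of -0.28 with slide as a block and -0.20 with a normexp background. Cox6a2, the heart and muscle form, read -3.06, -3.46 and -2.40 under normal chow and -2.36, -1.42 and -1.66 under the high-Chol diet (difference 1.16, standard error 0.34, adjusted p = 0.138). It was the 1 subunit higher with no overlap, with normal chow 3 and high-Chol 1 close together, and its difference was 0.61 with slide as a block and 0.05 with a normexp background.

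Cox4i2, the lung form of subunit 4, was well above background on 1 of 3 normal chow and 3 of 3 high-Chol arrays. It read -5.82, -6.27 and -4.74 under normal chow and -4.85, -3.53 and -3.36 under the high-Chol diet (difference 1.69). It passed the filter through the high-Chol arrays alone, so a difference in this direction was built into its selection, and it was at -0.45 with a normexp background. The diets overlapped, and the arrays of slide 2 were highest. Cox4i1, the common form, read 7.46, 7.82 and 7.73 against 7.54, 7.36 and 7.38 (difference -0.25, standard error 0.16, adjusted p = 0.393). Cox8a, which anchors in the inner membrane, differed by -0.43 (standard error 0.20) and Cox7a2 by -0.34 (standard error 0.17), or -0.21 on a dimmer probe. Cox7c, another small subunit, was at 0.45 (standard error 0.27) but at -0.06 with slide as a block. Cox6b1 differed by -0.14 (standard error 0.15), its testis form Cox6b2 by 0.43 (standard error 0.27) and Cox7a1, the muscle form of subunit 7a, by 0.13 (standard error 0.19). Ndufa4, long counted with complex I and now known as a subunit of complex IV, differed by -0.17 (standard error 0.19). Of the muscle markers, 1 of 6 (Actc1) passed the filter on signal, at 1.06 (standard error 0.24, adjusted p = 0.0691 from limma), with values of -1.81 to -1.39 under normal chow and -0.93 to -0.17 under the high-Chol diet, and it was at 0.63 with slide as a block and 0.41 with a normexp background. Myoglobin (Mb) was well above background on 0 of 6 arrays, Acta1 and Myh4 on 1, Ckm on 3 and Tnnt2 on 4. Their part in the values of Cox6a2 was not tested.

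**Figure D3:**
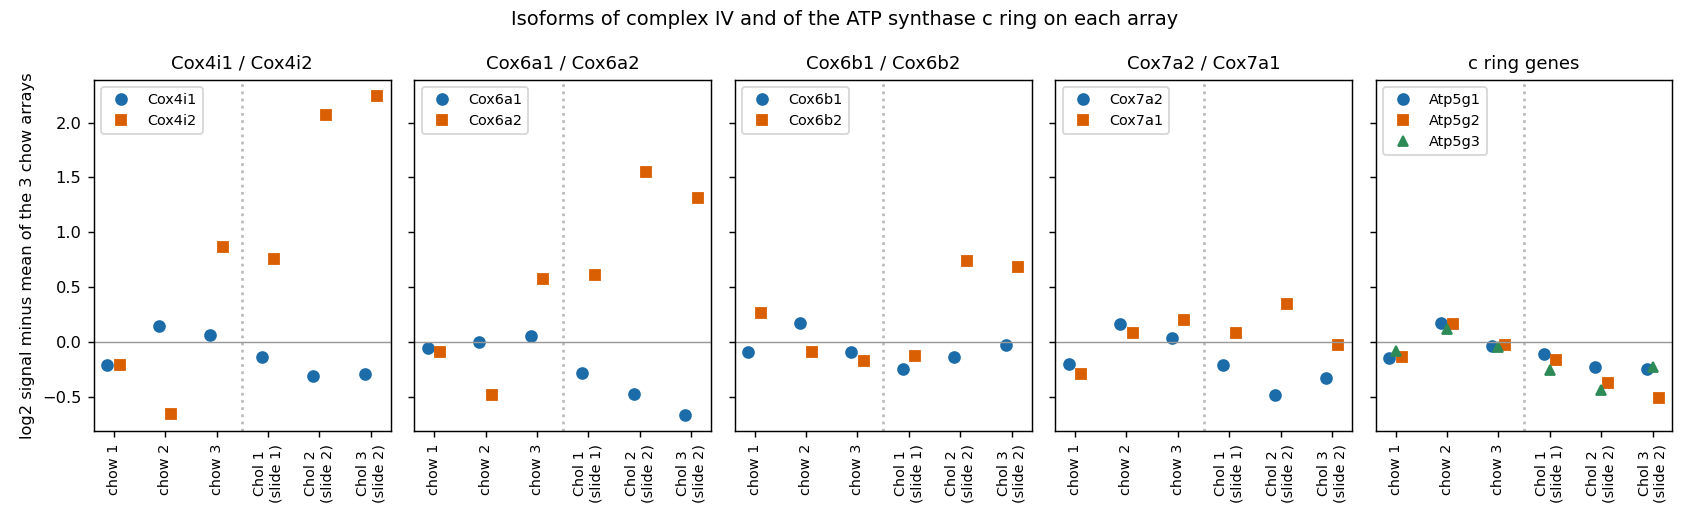
Log2 signal minus the mean of the 3 normal chow arrays (vertical axis) on each of the 6 arrays for isoforms of 4 complex IV subunits and the 3 genes of the ATP synthase c ring; the dotted line parts the diets. Cox4i2 and Cox6a2 are highest on the high-Chol arrays of slide 2 (differences of 1.69 and 1.16, or -0.45 and 0.05 with a normexp background, where Cox4i2 was well above background on 1 of 3 normal chow arrays), and Cox6a1 lies below 0 on all 3 high-Chol arrays.

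ATP synthase is built of a catalytic head (F1) and a membrane part with a rotating ring of c subunits. All 15 subunits were below 0, with a median of -0.23 and values from -0.60 to -0.05, and 5 of the 14 with 6 values were lower with no overlap (35.7%, against 14% of all genes and 25.9% of those of highest signal), while with a normexp background 2 of 15 were below 0. With slide as a block all 15 were again below 0, with a median of -0.13. The median was -0.26 for the 5 subunits of the head, -0.31 for the 3 genes of the c ring and -0.18 for the 7 other subunits. Atp5e, the small epsilon subunit of the head, read 7.14, 7.47 and 7.04 under normal chow and 7.06, 6.29 and 6.48 under the high-Chol diet (difference -0.60, standard error 0.24, adjusted p = 0.219 from limma). This was the lowest value of all subunits and the only one lower by more than 1.5-fold, but high-Chol 1 lay within normal chow and the difference was -0.15 with slide as a block. Atp5g1, Atp5g2 and Atp5g3 encode the same mature c subunit with different import sequences, and they differed by -0.19 (standard error 0.15), -0.35 (standard error 0.17) and -0.31 (standard error 0.15). At the other end, Atp5h and Atp5l were at -0.05 (standard error 0.20, with 2 high-Chol values) and -0.06 (standard error 0.14). Dimmer probes gave -0.11 (standard error 0.16) for Atp5g2 and -0.17 (standard error 0.17) for Atp5h.

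The 3 probes of Atp5b did not give the same size. The brightest, at chr10:127591587-127591646, read 7.94, 8.30 and 8.14 under normal chow and 7.94, 8.12 and 8.10 under the high-Chol diet (difference -0.07, standard error 0.16). The first of the printed probes read 6.41, 6.37 and 6.44 against 6.36, 5.65 and 5.51 (difference -0.56, standard error 0.24), and the split probe gave -0.28 (standard error 0.20). On the printed probe the normal chow arrays and high-Chol 1 were close together and the arrays of slide 2 lay lower, a pattern like that of Sdha and Uqcrc1.

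**Figure D4:**
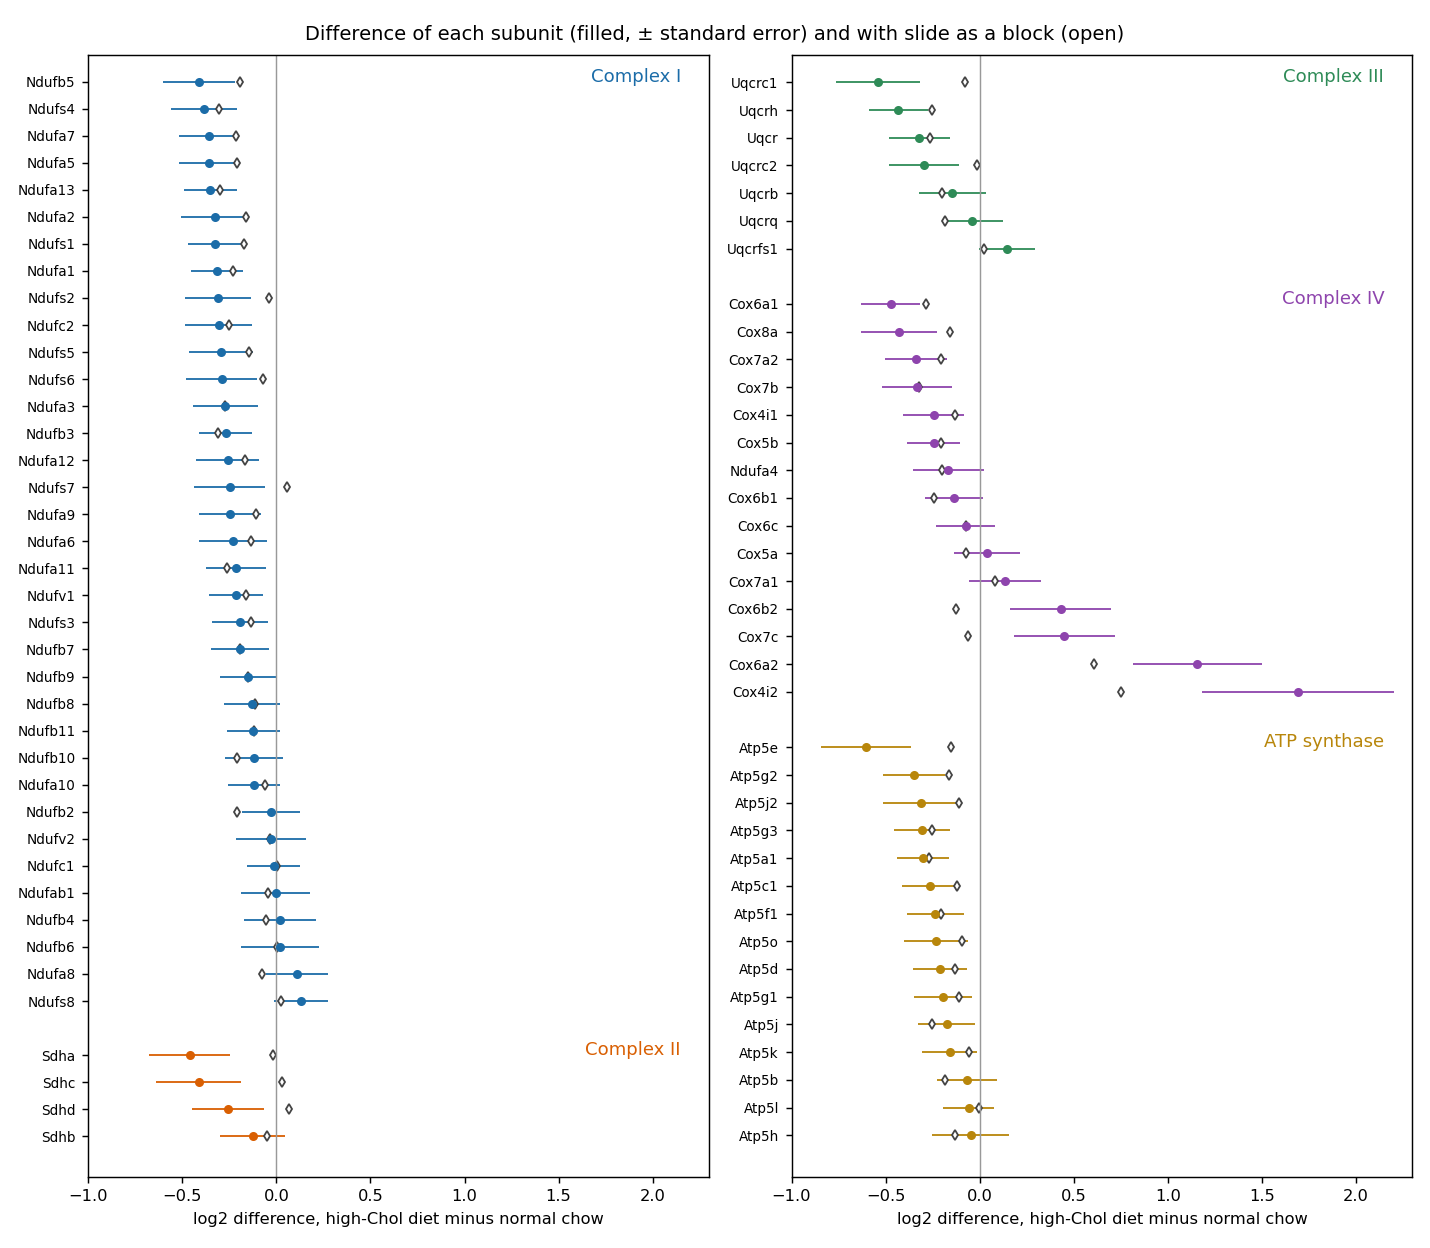
Log2 difference of each of the 76 tested subunits (high-Chol diet minus normal chow, horizontal axis), filled points with standard error from limma and open diamonds for the fit with slide as a block, in order of value within each complex. Most filled points lie left of 0 on the 75th percentile scale (65 of 76, against 20 of 76 with a normexp background), and the diamonds of complex II lie near 0, with a median of 0.0050.

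The medians of the 5 complexes stood in different orders under different processing. With the 75th percentile they ran from -0.33 for complex II to -0.14 for complex IV, and with slide as a block from -0.18 for complex III to 0.0050 for complex II. With quantile normalization they lay between -0.16 and 0.01, and with a normexp background between 0.0021 and 0.08. Median scaling placed all of them lower, from -0.57 to -0.37, together with the median of all genes at -0.26.

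**Figure D5:**
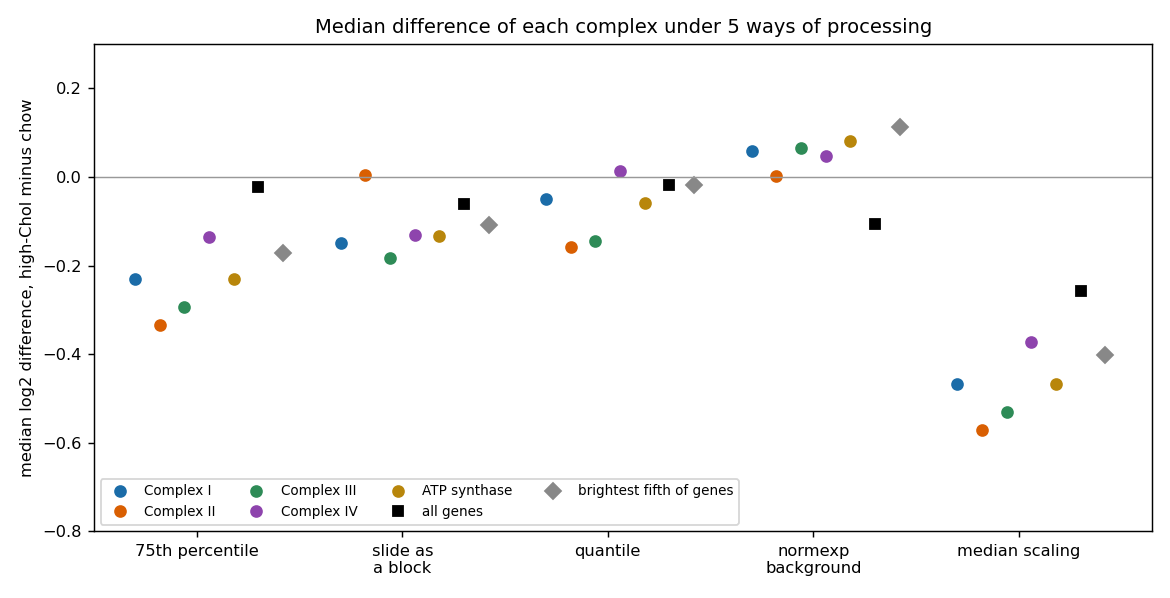
Median log2 difference between the diets (vertical axis) of each complex, of all 16727 genes and of the quintile of genes with the highest signal, under 5 ways of processing (horizontal axis). The complexes lie below 0 on the 75th percentile and median scales, and at or above 0 with a normexp background, where all genes are at -0.11.

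Related genes not matched by these names also had 0 calls in either direction. Of 23 assembly factors, 15 were below 0 with a median of -0.16, and at an unadjusted p under 0.05 from limma 5 were lower and 0 higher, against the 8.83% and 12.3% of all genes. Atpaf1, a chaperone for the F1 beta subunit, had the largest difference, at -1.39 (standard error 0.43, adjusted p = 0.154), with 4.09, 3.40 and 2.63 under normal chow and 2.65, 1.47 and 1.83 under the high-Chol diet. High-Chol 1 lay just above normal chow 3, so the diets overlapped, and the difference was -0.72 with slide as a block. Of 17 genes of the tricarboxylic acid cycle 15 were below 0 (median -0.22), of 73 genes of the mitochondrial ribosome 57 (median -0.11), and of 13 genes for cytochromes c and c1 and mitochondrial carriers 9 (median -0.08). Cyc1 encodes cytochrome c1, a catalytic subunit of complex III that the naming rule left out of the 7 above, and it was at -0.05. With a normexp background these medians were 0.08, 0.12 and 0.13, and that of the assembly factors was 0.04. The array annotation places 3 probes on the mitochondrial genome, which supplies further subunits, and the differences of these probes were -0.40, -0.14 and -0.08, with 1 of 3 below 0 under a normexp background. With slide as a block they were -0.38, -0.33 and -0.55 in the same order, so the last 2 lay lower. Of the 4 genes that match by name alone, Cox7a2l, which links complexes into supercomplexes, differed by -0.10 (standard error 0.18), Ndufaf1, an assembly factor, by -0.03 (standard error 0.15), Cox4nb by 0.03 (standard error 0.17) and Atp5s by 0.05 (standard error 0.17).

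Among 13 regulators of mitochondrial genes, 8 were below 0 with a median of -0.07. Ppargc1b, the coactivator PGC-1beta, read 1.85, 1.93 and 1.14 under normal chow and 0.66, 0.39 and 0.87 under the high-Chol diet (difference -1.001, standard error 0.25, adjusted p = 0.1002 from limma). Its diets did not overlap, and it was lower under each scaling, with -0.98 with slide as a block and -0.63 with a normexp background. Esrra, the estrogen-related receptor with which it works, read 3.11, 3.34 and 3.32 against 2.39, 2.21 and 3.31 (difference -0.62, standard error 0.29, adjusted p = 0.270). High-Chol 3 lay within normal chow and the other high-Chol arrays lay under it, and the difference was -0.86 with slide as a block and -0.27 with a normexp background. Ppargc1a differed by -0.18 (standard error 0.34), Gabpa by 0.10 (standard error 0.18) and Tfam, the packaging factor of mitochondrial DNA, by 0.42 (standard error 0.38, with 2 high-Chol values). With slide as a block these were 0.08, -0.03 and -0.14, all of the other sign, and with a normexp background -0.08, 0.20 and 1.03. Gabpb1, a partner of Gabpa, read -2.77, -3.11 and -2.96 against -2.53, -1.98 and -2.15 (difference 0.73, standard error 0.19, adjusted p = 0.110). It was the highest of the 13, its diets did not overlap, and it was at 0.42 with slide as a block and -0.22 with a normexp background. Nrf1, whose motif was counted above, read -2.44, -2.55 and -2.54 against -2.39, -2.61 and -2.55, so that the diets overlapped almost fully.

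Markers of cell types were read on the same arrays. Of 6 hepatocyte markers 5 were below 0 (median -0.30, or -0.077 with a normexp background, 0 called) and Ttr was at 0.48, and all 6 passed the filter on signal. The log2 of their summed signals was 10.3 to 10.6 under normal chow and 9.95 to 10.2 under the high-Chol diet. Of 6 macrophage markers 6 were above 0 (median 1.23) and 3, Cd68, Lyzs and Marco, were called higher by limma, and none of the 6 fell below the filter. The log2 of their summed signals was 6.50 to 6.85 under normal chow and 7.95 to 8.38 under the high-Chol diet. With a normexp background, where 0 of 16727 genes were called, Cd68, Lyzs and Marco were at 1.39, 2.03 and 2.07. None of the other marker genes that passed the filter was called. Of the T and B cell markers 4 were tested, with 1 below 0 and a median of 0.83 (-0.42 with a normexp background), and Cd3g was at 0.89 (-0.45 with a normexp background), but it passed the filter through the high-Chol arrays alone, since 2 of 3 normal chow arrays read it well above background. Of 3 white fat markers Fabp4 alone was tested, at 0.67 (standard error 0.19, adjusted p = 0.131) with no overlap, and Adipoq and Lep were well above background on 0 of 6 arrays. Of 3 brown fat markers Elovl3 alone was tested, at 1.66 (standard error 0.79, adjusted p = 0.272), and Ucp1 was well above background on 0 of 6 arrays. Of the erythroid markers tested, Hbb-b1 was at 1.06 and Alas2 at -0.44. Whether any of these values has a part in the values of the subunits was not tested.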

How the data were processed

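Liver RNA of 6 mouse samples in 2 diet groups was measured on one-colour Agilent arrays. The authors deposited scanner files with spot intensity values, background-subtracted by Agilent Feature Extraction (versions 9.5 on slide 1 and 9.1 on slide 2 per the file headers, 9.1 per the submitters' notes), and a matrix with 1 log2 value for each probe in each diet, normalized in Gene Spring GX with settings not given in the sources used here. Regressed on the differences computed here, those of the authors' log2 values gave a slope of 1.00 with an offset of -0.24, so the centring differs and the exact normalization is unknown.

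From the scanner files, log2 signal minus the 75th percentile of each array was taken, outlier-marked spots were left out (75 to 196 per array), spots of a probe were averaged and the brightest probe passing the filter stood for a gene. limma 3.58.1 (R 4.3.3) was fitted to both diets over 16727 genes, with Benjamini-Hochberg adjustment and a threshold of 0.05. Python 3.11.15 with pandas 2.3.3, numpy 2.4.6 and matplotlib 3.10.9 was used for tables and plots. On simulated data made from 16435 genes of this comparison, limma recovered 27 of 90 genes with a 2-fold change and 90 of 110 with a 4-fold change, and made 7 false calls. The number of arrays limits the precision.

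The members, gene lists, roles and motifs were chosen with earlier results of these data known. Genes were named by a rule (called members, the 2 highest and 2 lowest of each complex among those well above background on all 6 arrays, a list of tissue isoforms and close paralogues that includes Ndufa4, complex II, genes whose probes differ in sign, 6 regulators and genes matching by name alone), whereas Atp5b, Atp5j, Ndufs1, Ndufv2, Ndufa13, Cyc1, Gabpb1 and Atpaf1 were picked with their values in view. The names of genes follow the array design, and all 82 matched RefSeq (80 by accession and 2 by symbol), and probe positions are those of its mm7 annotation. Marker lists were taken for hepatocytes, macrophages, muscle, T and B cells, white fat, brown fat and erythroid cells.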

Additional observations from a re-analysis of the deposited data

How the results depend on the processing

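No paired analysis was possible because the arrays carry no replicate number that ties them across the diets. The count of 0 called subunits stayed 0 under every alternative run, except that array weights gave 9 (7 lower and 2 higher, 1 of them Cox4i2, whose direction its filter fixed, with a weight of 0.331 for high-Chol 1, and with 995 lower and 2201 higher over all genes) and leaving out single arrays gave 0 to 8, the 8 without high-Chol 1. The median difference of the subunits was 0.053 with the normexp background, -0.47 with median scaling, -0.049 with quantile normalization and -0.47 in the authors' deposited values, whose median over all genes was -0.28. For complex I it was 0.059, -0.47, -0.051 and -0.47 in that order. For complex III it was 0.065, -0.53 and -0.54 with normexp, median scaling and the authors' values, and for ATP synthase 0.082, -0.47 and -0.47. For complex IV it was -0.37 with median scaling and -0.38 in the authors' values. With single arrays left out, the median of the subunits ran from -0.31 to -0.14. The filter and probe choice moved no median by more than the spread between arrays. The variance prior and t-test use the same group means, so they cannot move a difference. Among named genes and the median relative to all genes, 661 alternative values kept their call and stayed within that spread, 118 moved by more and 18 passed the threshold. The medians set against all genes of the same processing were chosen after seeing the data.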
